A study of Mus musculus with 6 samples.

Results

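RNA-seq counts of 10 mouse genes that restrain mitogen-activated protein kinase (MAPK) signalling were examined in cultured dendritic cells with and without DB2313. The genes were 7 dual-specificity phosphatases (Dusp1, Dusp2, Dusp4, Dusp5, Dusp6, Dusp10 and Dusp16), the Sprouty genes Spry1 and Spry2, and the related gene Spred1. They were chosen by name, as rows of a count table of 54532 genes, with earlier results of these data known. All 10 were in the table and passed the filter on low counts, which kept 14174 genes. The study compared 3 libraries of cells labelled as control with 3 libraries of cells given DB2313. This is a small molecule that the study used to inhibit Spi1 (PU.1), a transcription factor of macrophages and dendritic cells. All cells were labelled as mouse dendritic cells and grown in the same serum-containing medium, and the labels gave no dose, time, strain or age, while the text of the study speaks of macrophages. The treated columns of the table carried the name of Spi1 and the control columns the letters BMDC, and every direction below rests on reading them in this way. C1qa, a complement gene that the study followed and that is named after its values were seen, was at 30.2 ± 3.00 CPM (SD, n = 3) in the columns read as control and 15.4 ± 1.49 CPM in those read as DB2313 (log2 fold change -0.97, edgeR adjusted p 7.9e-05). Nothing states that the 3 libraries of a group came from separate cultures or animals, so the p-values measure the spread between these libraries.

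MAPKs carry signals from growth factor, cytokine and Toll-like receptors to the nucleus. The 3 main branches end in the kinases ERK, p38 and JNK, and each is active only while it holds phosphates on a threonine and a tyrosine. Dual-specificity MAPK phosphatases remove both phosphates. Dusp1, Dusp2, Dusp4 and Dusp5 encode nuclear enzymes that are quickly induced by the kinases themselves, Dusp6 encodes a cytoplasmic enzyme selective for ERK, and Dusp10 and Dusp16 encode enzymes that prefer p38 and JNK. Sprouty and Spred proteins act further up, between the receptor and RAF, and Spred1 does so by bringing the RAS inhibitor neurofibromin to the membrane. In myeloid cells, Dusp1 is known as a brake on p38-driven cytokine production after Toll-like receptor stimulation.

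Because DB2313 is directed at a DNA-binding factor, the promoters of the 4 genes that passed the test below are shown, with that of Dusp5, the most abundant of the 10, for comparison. The windows run from 250 bases before to 50 bases after a transcription start and were taken from RefSeq on GRCm38.p6, where 9 of the 10 genes matched, all but Dusp4. They lay at chr17:26508423-26508722 (minus strand), chr2:127335909-127336208 (plus), chr1:184034131-184034430 (plus), chr6:134792579-134792878 (minus) and chr19:53528895-53529194 (plus). The window of Dusp10 lies inside the gene as the count table lists it. Capitals mark matches on either strand to GAGGAA (a core bound by PU.1), TGACG (a short form of the cAMP response element), TGACTCA (the AP-1 site) or the CArG box of serum response factor.
Dusp1: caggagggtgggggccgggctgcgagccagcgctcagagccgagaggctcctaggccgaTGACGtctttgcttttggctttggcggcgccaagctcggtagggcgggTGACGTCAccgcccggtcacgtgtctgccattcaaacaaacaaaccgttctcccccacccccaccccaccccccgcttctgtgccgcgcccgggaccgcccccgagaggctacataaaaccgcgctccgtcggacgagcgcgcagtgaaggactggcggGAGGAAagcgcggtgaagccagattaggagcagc
Dusp2: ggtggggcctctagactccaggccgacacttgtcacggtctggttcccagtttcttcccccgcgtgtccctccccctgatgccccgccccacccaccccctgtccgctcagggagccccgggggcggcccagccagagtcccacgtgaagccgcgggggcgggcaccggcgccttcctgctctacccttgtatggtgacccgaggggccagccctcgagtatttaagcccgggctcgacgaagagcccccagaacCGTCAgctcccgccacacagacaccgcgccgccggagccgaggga
Dusp10: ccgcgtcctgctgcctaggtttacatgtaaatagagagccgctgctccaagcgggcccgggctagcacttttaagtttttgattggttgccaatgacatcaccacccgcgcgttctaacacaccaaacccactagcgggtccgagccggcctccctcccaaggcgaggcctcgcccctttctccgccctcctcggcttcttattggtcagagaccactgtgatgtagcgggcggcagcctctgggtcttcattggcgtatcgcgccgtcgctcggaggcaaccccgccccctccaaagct
Dusp16: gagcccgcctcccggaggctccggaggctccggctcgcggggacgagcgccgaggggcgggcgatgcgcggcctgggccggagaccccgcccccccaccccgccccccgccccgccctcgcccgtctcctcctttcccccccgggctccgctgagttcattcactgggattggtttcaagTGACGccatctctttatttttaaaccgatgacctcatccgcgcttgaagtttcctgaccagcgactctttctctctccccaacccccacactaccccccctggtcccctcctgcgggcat
Dusp5: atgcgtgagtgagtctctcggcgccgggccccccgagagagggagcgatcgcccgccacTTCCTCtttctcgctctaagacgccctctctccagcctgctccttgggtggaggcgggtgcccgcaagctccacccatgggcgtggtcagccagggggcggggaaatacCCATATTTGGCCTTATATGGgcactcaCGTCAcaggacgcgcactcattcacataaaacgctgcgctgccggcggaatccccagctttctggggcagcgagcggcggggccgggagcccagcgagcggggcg

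GAGGAA was found in 3 of the 9 windows, those of Dusp1, Dusp5 and Dusp6, and in 28.3% of all 32851 promoter windows of the same length. TGACG was found in 4 of the 9, those of Dusp1, Dusp2, Dusp5 and Dusp16, against 20.8% of all windows. Positions are counted from the start site, which is base 1. In Dusp1 the matches from -143 to -139 and from -140 to -136 overlap and together form a palindrome. A pair of CArG boxes stood side by side in Dusp5, from -82 to -73 and from -72 to -63, while 1.63% of all windows held at least 1. TGACTCA was in none of the 9 windows and in 5.2% of all. These matches describe the letters of the windows and do not show binding.

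The levels of the 10 genes were compared first, per kilobase of gene length (RPKM, on libraries scaled for depth), since counts alone favour long genes. In control cells, Dusp5 was the highest, at 86.99 ± 4.94 RPKM (SD, n = 3), above 95.8% of the genes tested. Dusp1 (31.3 ± 3.51 RPKM) and Dusp6 (25.5 ± 2.20 RPKM) came next, and their libraries overlapped. Below them were Spred1 (14.8 ± 0.220), Dusp4 (12.3 ± 0.737), Dusp2 (9.64 ± 1.12), Dusp16 (6.44 ± 0.509), Spry2 (3.80 ± 0.736), Dusp10 (2.25 ± 0.126) and Spry1 (0.371 ± 0.0643 RPKM), each pair of neighbours without overlap between libraries. With DB2313 the order of the means was the same, but the gaps narrowed in the middle. Spred1 (15.6 ± 0.410 RPKM), Dusp4 (14.1 ± 1.95) and Dusp2 (13.6 ± 1.77) then overlapped each with the next, as did Spry2 (3.93 ± 0.168) and Dusp10 (3.62 ± 0.305).

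**Figure D1:**
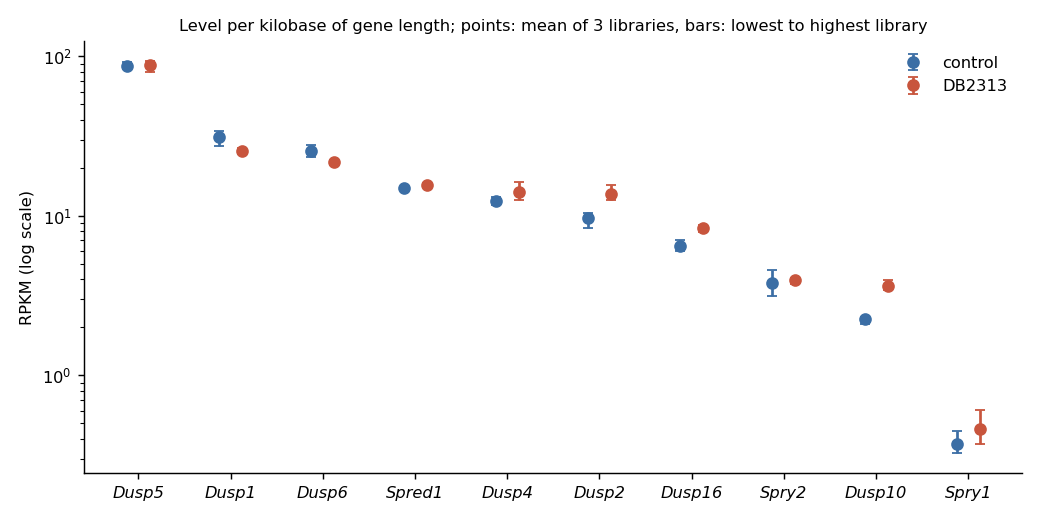
Level of each gene in RPKM (reads per kilobase, scaled for depth; log scale) in control (blue) and DB2313 (red) libraries, as the mean of 3 libraries with bars from the lowest to the highest. Dusp5 stood highest in both groups, at 86.99 RPKM in control, and Spry1 lowest, at 0.371 RPKM.

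To ask which of these brakes differed with DB2313, edgeR's quasi-likelihood test was fitted on all 14174 genes with p-values adjusted over them. Dusp2, Dusp10 and Dusp16 rose, Dusp1 fell, and the other 6 genes did not pass an adjusted p of 0.05. Of all genes tested, 10.6% passed this threshold, 4.66% as higher and 5.94% as lower, whereas 4 of the 10 brakes did, 3 higher and 1 lower. The 10 were chosen with earlier results of these data known, so the comparison with all genes is a description only. In CPM (reads scaled to library size with TMM), the groups were free of overlap for 6 of the 10 and for 27.4% of all genes. The median log2 fold change of the 10 was 0.13, beside 8.2e-04 for all genes, and none of the 10 changed by 2-fold. Without control replicate 1 or DB2313 replicate 2, 1 brake was higher and 0 were lower. Without control replicate 3, 2 were higher and 0 lower, without control replicate 2, 2 were higher, and without DB2313 replicate 3, 2 were lower. In bulk libraries, a change in the share of cells that express a gene and a change in RNA per cell cannot be told apart.

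**Figure D2:**
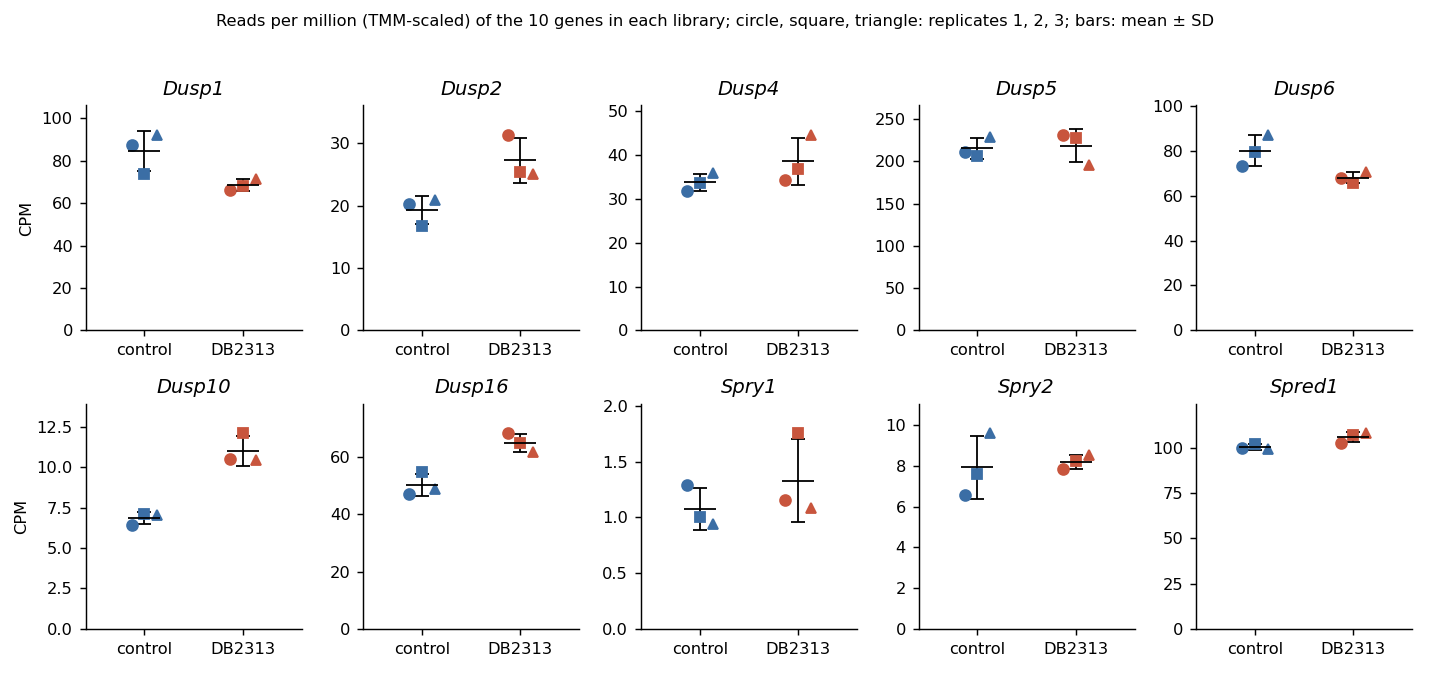
CPM of each of the 10 genes in the 3 control (blue) and 3 DB2313 (red) libraries, with replicates 1, 2 and 3 as circle, square and triangle and bars for mean ± SD; each panel has its own axis from 0. The groups are apart for Dusp1, Dusp2, Dusp6, Dusp10, Dusp16 and Spred1, and overlap for Dusp4, Dusp5, Spry1 and Spry2.

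Dusp10 and Dusp16, the phosphatases that prefer p38 and JNK, were both higher with DB2313. Dusp10 (ENSMUSG00000039384, chromosome 1, 184013302 to 184075636, plus strand, GRCm38) stood at 6.39, 7.09 and 7.02 CPM in control replicates 1 to 3 and at 10.5, 12.1 and 10.5 CPM with DB2313. Every treated library lay above every control library, and the highest value was in DB2313 replicate 2. Its log2 fold change was 0.69 ± 0.15 (SE), a 61.3% increase, with an edgeR adjusted p of 0.00901. The counts behind it were low, from 104 to 113 in control and from 173 to 241 with DB2313. Leaving out DB2313 replicate 2 gave Dusp10 a log2 fold change of 0.62 and an edgeR adjusted p of 0.0647.

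Dusp16 (ENSMUSG00000030203, chromosome 6, 134715468 to 134792625, minus strand) was measured at 47.2, 54.7 and 48.8 CPM in control and at 68.3, 64.8 and 61.9 CPM with DB2313. The groups were apart, with control replicate 2 the nearest to the treated libraries. Its log2 fold change was 0.37 ± 0.09 (SE), a 29.5% increase, with an edgeR adjusted p of 0.0111. This call was lost in edgeR without control replicate 1 (adjusted p 0.0730), control replicate 3 (0.0648) or DB2313 replicate 2 (0.0557), while its log2 fold change stayed between 0.33 and 0.44. Summed per length, Dusp10 and Dusp16 went from 8.69 ± 0.607 to 11.96 ± 0.508 RPKM (SD, n = 3). Each treated library exceeded each control library in this sum, which follows from the separation of both genes and is not further evidence.

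Dusp2, a nuclear phosphatase best known from activated leukocytes, was the third gene that rose. Dusp2 (ENSMUSG00000027368, chromosome 2, 127336159 to 127338376, plus strand) was at 20.2, 16.7 and 20.9 CPM in control and at 31.3, 25.3 and 25.1 CPM with DB2313. DB2313 replicate 1 was the highest, and the other treated libraries were close to each other and above all controls. The log2 fold change was 0.49 ± 0.12 (SE), a 40.9% increase, with an edgeR adjusted p of 0.0176. Without control replicate 2, the lowest library, it was 0.41 (edgeR adjusted p 0.104). Leaving out control replicate 1 gave an edgeR adjusted p of 0.0530. Without DB2313 replicate 1 it was 0.39 with an edgeR adjusted p of 0.0452.

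Of the other 3 inducible nuclear phosphatases, Dusp1 fell, and Dusp4 and Dusp5 did not pass the test. Dusp1 (ENSMUSG00000024190, chromosome 17, 26505590 to 26508519, minus strand) was at 87.3, 73.9 and 92.1 CPM in control and at 66.1, 68.1 and 71.3 CPM with DB2313. The treated libraries lay close together, and control replicate 2 was only a little above them. Dusp1 fell by 0.30 ± 0.09 on the log2 scale (SE), which is a change of -18.9%, with an edgeR adjusted p of 0.0417. This call was near the threshold. It was lost in edgeR without control replicate 1 (adjusted p 0.166), control replicate 3 (0.207) or DB2313 replicate 2 (0.159), with library totals in place of TMM (0.0722), and in the fit blocked on replicate number (0.0698).

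Dusp4 (ENSMUSG00000031530, chromosome 8, 34807297 to 34819894, plus strand) was at 31.8, 33.6 and 35.9 CPM in control and at 34.4, 36.8 and 44.6 CPM with DB2313. The groups overlapped, and DB2313 replicate 3 stood above the rest. Its log2 fold change was 0.19 ± 0.11 (SE), with a 95% interval from -0.035 to 0.42 and an edgeR adjusted p of 0.304. Without DB2313 replicate 3 the log2 fold change was 0.077.

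Dusp5 (ENSMUSG00000034765, chromosome 19, 53529109 to 53542431, plus strand), a nuclear phosphatase selective for ERK, was at 210.5, 205.9 and 229 CPM in control and at 231, 227 and 195.9 CPM with DB2313. The groups overlapped. With 3260 to 4534 counts per library, the log2 fold change was 0.020 ± 0.08 (SE), and its 95% interval ran from -0.15 to 0.19. The edgeR adjusted p was 0.917. The exons of Dusp5 share 547 bp with an antisense gene, AC137853.2, and the strand setting of the counting is not given in the sources used here, so reads of the 2 genes cannot be told apart.

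Dusp6, the cytoplasmic phosphatase of ERK, was lower in each treated library but did not pass the test. Dusp6 (ENSMUSG00000019960, chromosome 10, 99263231 to 99267489, plus strand) was at 73.3, 79.4 and 87.1 CPM in control and at 68.0, 65.5 and 70.5 CPM with DB2313. The treated libraries were tight and below all controls, and control replicate 1 was the nearest to them. The log2 fold change was -0.23 ± 0.08 (SE), and edgeR gave it a p of 0.0137, or 0.0934 after adjustment. It passed in edgeR without DB2313 replicate 3 (-0.26, adjusted p 0.0426) and with an offset for gene length (-0.25, adjusted p 0.0422).

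The Sprouty and Spred genes did not pass. Spred1 (ENSMUSG00000027351, chromosome 2, 117121374 to 117182279, plus strand) was the steadiest of the 10, at 99.97, 102.3 and 99.5 CPM in control and 102.9, 106.97 and 108.2 CPM with DB2313. The treated libraries were all above the controls, but by little, and the log2 fold change was 0.075 ± 0.07 (SE, 95% interval -0.075 to 0.23, edgeR adjusted p 0.580). Spry2 (ENSMUSG00000022114, chromosome 14, 105891947 to 105896819, minus strand) ranged from 6.58 to 9.60 CPM in control and from 7.83 to 8.53 CPM with DB2313, so that the treated range lay within the control range. Its log2 fold change was 0.050 ± 0.17 (SE, 95% interval -0.32 to 0.42, edgeR adjusted p 0.907). Spry1 (ENSMUSG00000037211, chromosome 3, 37639947 to 37644598, plus strand) had only 15 to 35 counts per library, or 0.941 to 1.29 CPM in control and 1.08 to 1.76 CPM in the treated cells, and the groups overlapped. At this depth its 95% interval was wide, from -0.55 to 1.17 on the log2 scale, and the edgeR adjusted p was 0.712. The exons of Spry1 share 710 bp with Gm42922, a gene on the other strand that had 0 to 1 counts per library. As the strand setting is not given, reads of the shared bases cannot be told apart.

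**Figure D3:**
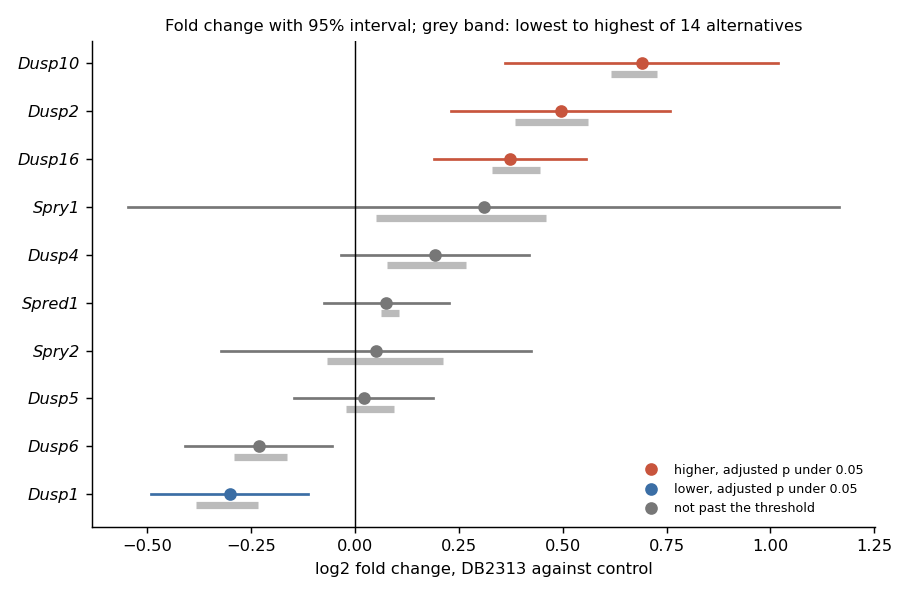
Log2 fold change of each gene, DB2313 against control, with its 95% interval from edgeR (points and lines; red higher and blue lower at an adjusted p under 0.05, grey not past it) and, as a grey band, the range over 14 alternative fits. Dusp10 is at 0.69 and Dusp1 at -0.30, and the interval of Spry1 spans -0.55 to 1.17.

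As the fold changes went both ways, the total of the phosphatases was examined. The summed level of the 7 phosphatases was 174.5 ± 10.8 RPKM in control and 174.98 ± 6.02 RPKM with DB2313 (SD, n = 3), and the groups overlapped. Dusp5 made up 49.9% ± 0.281 of this sum in control and 50.4% ± 2.86 with DB2313. The share of Dusp1 went from 17.9% ± 1.27 to 14.5% ± 1.07 and that of Dusp6 from 14.6% ± 0.818 to 12.4% ± 0.826, with no overlap between the groups. Dusp2 went from 5.52% ± 0.445 to 7.76% ± 0.811, Dusp16 from 3.71% ± 0.459 to 4.76% ± 0.0865 and Dusp10 from 1.29% ± 0.0980 to 2.07% ± 0.169, again without overlap. The ratio of Dusp16 to Dusp6 counts, which needs no scaling between libraries, was 0.643, 0.689 and 0.561 in control and 1.00, 0.989 and 0.877 with DB2313. The shares of a sum depend on each other, and the separation of the ratio follows from that of its genes. These values are a description of the same libraries as the test above.

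Relatives of the 10 genes and genes of their pathways were taken from lists written with earlier results of these data known. The shares of all genes tested that stand beside their counts are therefore a description only. Of 11 tested genes among 14 other dual-specificity phosphatases, 3 fell (27.3%, against 5.94% of all genes tested). The median log2 fold change of the 11 was -0.31. The genes that fell were Dusp14 (-0.65 ± 0.19, SE), Dusp22 (-0.38 ± 0.10) and Dusp3 (-0.35 ± 0.11), all small atypical enzymes without the MAPK-binding domain, with edgeR adjusted p of 0.0364, 0.0189 and 0.0498. None of the 10 brakes described above belongs to this atypical class. The number that fell was 3 without DB2313 replicate 3, 1 without control replicate 1 or DB2313 replicate 1, and 0 without control replicate 2, control replicate 3 or DB2313 replicate 2. Exons of Dusp3 overlap an antisense gene. The closest relatives of the ERK phosphatase Dusp6, namely Dusp7 (27.6 ± 5.996 CPM in control and 22.2 ± 3.61 CPM in treated cells) and Dusp9 (1.12 ± 0.357 and 0.449 ± 0.131 CPM), missed the threshold (edgeR adjusted p 0.231 and 0.113). Dusp8, the closest relative of Dusp16, was too low to be tested, with 0 to 12 counts per library.

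Among 16 other Sprouty and Spred genes and RAS inhibitors, 14 were tested. Spry4 (2.27 ± 0.906 CPM in control and 1.34 ± 0.478 CPM with DB2313), Spred2 (22.5 ± 1.73 and 24.996 ± 2.65 CPM) and Spred3 (4.49 ± 0.319 and 4.95 ± 1.04 CPM) missed the threshold (edgeR adjusted p 0.297, 0.459 and 0.767). Spry3 was too low to be tested. Rasa4 and Rasal2, which encode RAS GTPase-activating proteins, both fell. Rasa4 fell by 0.97 ± 0.09 on the log2 scale (SE), from 68.3 to 34.8 CPM, with an edgeR adjusted p of 5.4e-06. Rasal2 fell by 1.11 ± 0.16, from 11.1 to 5.15 CPM, with an edgeR adjusted p of 3.3e-04. Without DB2313 replicate 3, 4 genes of this list fell in place of 2. Exons of Rasa4 and Rasal2 overlap those of genes on the other strand.

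Upstream of the brakes, 6 of 16 tested receptors fell (37.5%, against 5.94% of all genes tested), with a median log2 fold change of -0.25 over the list. The 4 lowest were Fgfr3 (-2.14 ± 0.33, SE), a receptor for fibroblast growth factors, Met (-1.20 ± 0.09), the receptor for hepatocyte growth factor, Tlr2 (-0.49 ± 0.08), a Toll-like receptor for bacterial lipopeptides, and Csf3r (-0.41 ± 0.09), the receptor for G-CSF. Their edgeR adjusted p were 6.6e-04, 9.8e-07, 9.0e-04 and 0.00863. The number that fell was 3 without control replicate 1 or DB2313 replicate 2, and 9 without DB2313 replicate 3. It was 4 without control replicate 2, control replicate 3 or DB2313 replicate 1. Exons of Fgfr3 overlap those of a gene on the other strand.

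Between receptor and kinase, 4 genes of the 29 tested in the ERK cascade rose and 2 fell (20.7%, against 10.6% of all genes tested). The Rasgrp genes encode exchange factors that load small GTPases of the RAS family with GTP. Rasgrp3 rose by 1.03 ± 0.18 on the log2 scale (SE), Rasgrp2 by 0.38 ± 0.10 and Rasgrp4 by 0.33 ± 0.09, while Rasgrp1 fell by 0.64 ± 0.10, with edgeR adjusted p of 0.00139, 0.0190, 0.0239 and 5.7e-04. The adaptor Shc1 rose by 0.47 ± 0.08 (edgeR adjusted p 0.00167), and the exchange factor Sos2 fell by 0.32 ± 0.10 (0.0446). Rasgrp2 and Rasgrp4 share exon bases with genes on the other strand. The kinases Mapk3 and Mapk14, named after their values were seen, did not pass. Mapk3 (ERK1) averaged 428 CPM in the controls and 392 CPM in the treated libraries, and Mapk14 (p38 alpha) 195 and 189.6 CPM (edgeR adjusted p 0.388 and 0.819). In the p38 and JNK cascades, 1 of 21 tested genes passed (4.76%, against 10.6% of all genes tested). It was Map3k1, an upstream kinase of JNK, which fell by 0.35 ± 0.09 (SE, edgeR adjusted p 0.0184). Map3k1 lost this call without control replicate 2, control replicate 3 or DB2313 replicate 2, and 2 genes of its list fell without DB2313 replicate 3. In the ERK cascade, 2 genes rose without control replicate 2, control replicate 3 or DB2313 replicate 2. There, 1 fell without control replicate 1, control replicate 2 or DB2313 replicate 2, and 4 fell without DB2313 replicate 1.

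**Figure D4:**
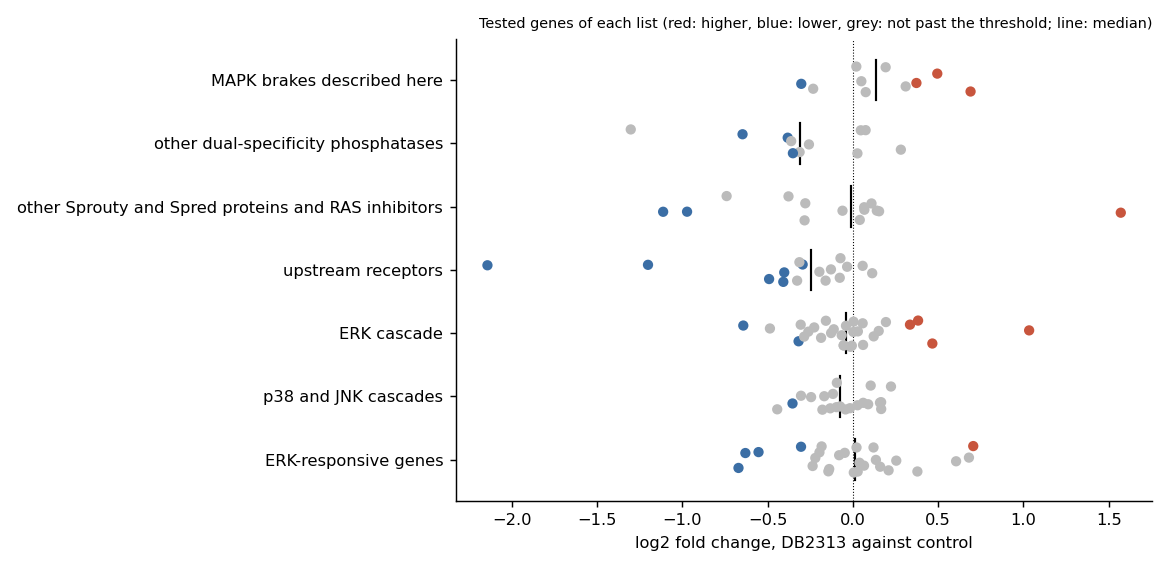
Log2 fold change of each tested gene of the 10 brakes and of 6 lists around them, with genes higher (red) and lower (blue) at an edgeR adjusted p under 0.05 and a line at the median of each list. The brakes have a median of 0.13, the other dual-specificity phosphatases of -0.31 and the receptors of -0.25.

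Downstream, genes known to respond to ERK signalling were read beside the brakes, because Dusp1 belongs to the same class of immediate early genes. Of 26 tested genes, 4 fell and 1 rose (19.2%, against 10.6% of all genes tested), and the median log2 fold change was 0.013. Fos, a subunit of the AP-1 factor, was at 60.4, 37.6 and 45.3 CPM in control and at 29.995, 33.4 and 29.2 CPM with DB2313. The zinc finger factor Egr1 was at 31.1, 19.5 and 19.1 CPM in control and at 15.4, 17.4 and 14.7 CPM with DB2313. Its relative Egr2 was at 30.7, 23.4 and 27.4 CPM in control and at 17.4, 15.8 and 18.1 CPM in the treated cells. All 3, and Junb, were lower in each treated library than in each control library. The log2 fold changes were -0.63 ± 0.14 for Fos, -0.55 ± 0.17 for Egr1, -0.67 ± 0.12 for Egr2 and -0.30 ± 0.08 for Junb (SE), with edgeR adjusted p of 0.00796, 0.0453, 0.00204 and 0.0278. Control replicate 1 was the highest library for Fos, Egr1 and Egr2, while control replicate 3 was the highest for Dusp1. Without control replicate 1, 1 gene of the list fell, and without DB2313 replicate 2, 2 fell. Ccnd1, the gene of cyclin D1, rose by 0.71 ± 0.10 (SE, edgeR adjusted p 4.4e-04), and 3 genes rose without DB2313 replicate 3. Exons of Ccnd1 and Junb overlap those of genes on the other strand. Immediate early genes also respond to the handling of cells, and no value here measures handling, so its part was not tested.

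**Figure D5:**
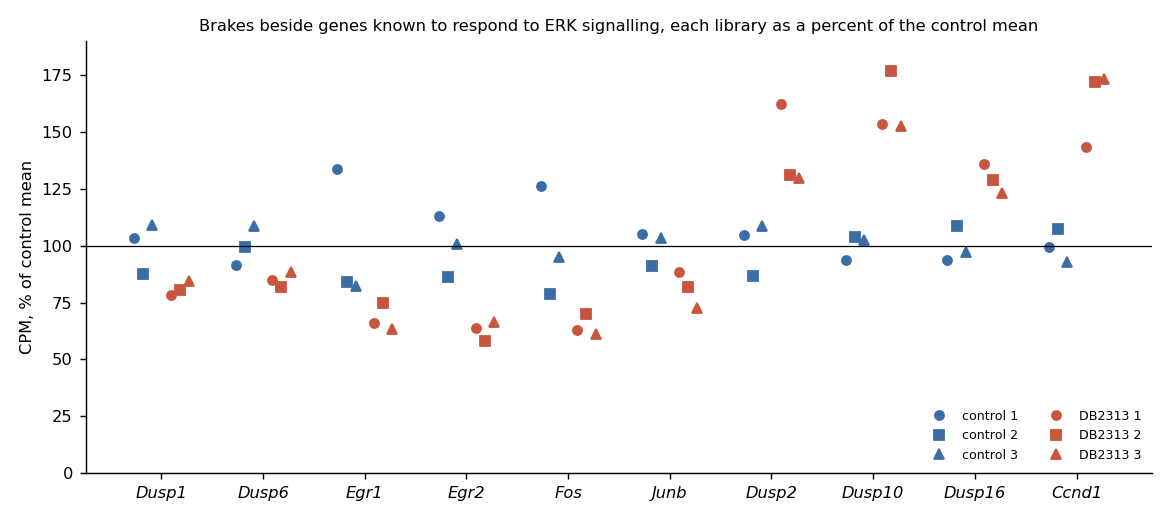
CPM in each library as a percent of the control mean (line at 100%) for the brakes that passed the test, Dusp6, and the genes known to respond to ERK signalling that passed it, in control (blue) and DB2313 (red) libraries. Egr2 is at 58.3% to 66.5% and Dusp10 at 153% to 177% in the treated libraries.

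Transcripts of more than 1 cell type were found in the libraries, and these were compared with the changes above. Of 12 dendritic cell markers, 11 exceeded 10 CPM in control and Cd209a was near 0, and all 10 macrophage markers exceeded 10 CPM. Total counts ranged from 16146743 to 19764677 per library. The DB2313 libraries differed more from each other than the controls did, with a chi-square per degree of freedom over genes of 7.99 to 19.4 between pairs, the highest between replicates 1 and 3, against 5.02 to 5.55 among controls. T cell markers (8 of 10 over 10 CPM) summed to 223 to 250.1 CPM in control and 226 to 329 CPM with DB2313, neutrophil markers (10 of 10) to 4421 to 4973 and 4487 to 5895 CPM, and mast cell and basophil markers (8 of 10) to 2521 to 2721 and 2570 to 3079 CPM. Single genes of these lists were higher in each treated library than in each control library and passed the test. They were Elane, Ly6g and Retnlg of neutrophils (log2 fold changes 0.69, 0.56 and 0.51), Fcer1a and Hdc of mast cells and basophils (0.34 and 0.28) and Cd28 of T cells (0.41), with edgeR adjusted p from 5.9e-04 to 0.0458. Called higher were thus 3 of 10 neutrophil, 2 of 10 mast cell and basophil and 1 of 10 T cell markers, against 4.66% of all genes tested. No gene of these 3 lists was called lower. Tested genes with a negative log2 fold change were Camp (-0.29) and Ngp (-0.013) of neutrophils and Ms4a2 (-0.17) of mast cells and basophils. Ms4a2 was lower in each treated library than in each control library (edgeR adjusted p 0.217). B cell markers (1 of 8 over 10 CPM, 6 under 1 CPM) summed to 34.1 to 39.3 CPM in control and 40.9 to 47.1 CPM with DB2313, without overlap, and none of them passed the test. Of 8 fibroblast and endothelial markers, Pecam1 exceeded 10 CPM, 4 were under 1 CPM in control and 2 of these, Col3a1 and Dcn, were at 0 in every library. Their sum was 51.5 to 56.6 CPM in control and 54.1 to 56.3 CPM with DB2313. DB2313 replicate 1 was the highest library for the T cell, neutrophil and mast cell sums, and it was also the highest for Dusp2 and Dusp16. In DB2313 replicate 3 these 3 sums lay within the control range, and Dusp2, Dusp10 and Dusp16 were at 129.8%, 153% and 123% of their control means. The part of other cells in the rise of Dusp2, Dusp10 and Dusp16 was not tested. Macrophage markers summed to 9819 to 11197 CPM in control and 8819 to 9704 CPM with DB2313, without overlap, and their part in the fall of Dusp1 was not tested.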

How the data were processed

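RNA was extracted with Trizol from 3 control and 3 DB2313-treated samples of dendritic cells and sequenced on an Illumina instrument. The deposited values are whole-number read counts for each gene, without normalisation or pooling, with the length of each gene in bases. The submitters' processing notes name CASAVA 1.8, HISAT2 2.0.5 and featureCounts 1.5.0-p3, whereas the methods of the study name LifeScope. The build and strand setting are not given in the sources used here. Of 54495 gene identifiers shared with GENCODE M21 (GRCm38), 98.33% had the same start and end, and GRCm38 is therefore named as the build. The table lists another start or end than GENCODE M21 for Dusp1.

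Total counts ranged from 16146743 to 19764677 per library, and without molecular identifiers, PCR copies of a molecule cannot be separated. Columns were matched to samples by the meaning of their names and their numbers. edgeR 4.0.16 (R 4.3.3) was used with TMM scaling, filterByExpr, the group as the only term, the quasi-likelihood test, two-sided, and Benjamini-Hochberg adjustment over all genes tested. A gene was said to rise or fall at an adjusted p under 0.05. CPM used TMM-scaled libraries, and RPKM divided them by the deposited gene length. SE and 95% intervals came from the same fit. Alternatives were DESeq2 1.42.0, limma-voom (limma 3.58.1), DESeq2 size factors, library totals, no filter, an offset for gene length (lowess, span 0.3), the replicate number as a block, the offset together with the block, and each library left out in turn. The script was tested on simulated data first. Some genes of the lists are not reported here. The labels gave no batch, so none could be examined. All 10 genes were named, with their closest relatives and, per list, up to 4 of the most raised and 4 of the most lowered genes, by log2 fold change, among those past the threshold with a mean of at least 1 CPM. The genes and lists were chosen with earlier results of these data known.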

Additional observations from a re-analysis of the deposited data

How the results depend on the processing

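The counts of brakes that passed, 3 higher and 1 lower, were the same with DESeq2, limma-voom, DESeq2 size factors and no filter. With an offset for gene length 2 were lower, Dusp6 being added. With library totals 0 were lower, and 0 were lower with the replicate number as a block, where the adjusted p of Dusp1 was 0.0698; an unadjusted edgeR p under 0.05 was held by 2 lower brakes in both of these fits. When each of the 6 libraries was left out in turn, 1 to 3 brakes were higher and 0 to 2 lower, fits that by construction have fewer samples. The cause of the other differences was not tested.

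The log2 fold changes of Dusp1, Dusp2, Dusp6, Dusp10, Dusp16, Dusp4, Spry1 and Spred1 kept their direction in all 14 alternatives. That of Dusp10 ranged from 0.62 to 0.73 and passed in 13, Dusp2 from 0.39 to 0.56 in 12, Dusp16 from 0.33 to 0.44 in 11 and Dusp1 from -0.38 to -0.23 in 9. Dusp5, close to 0, turned to -0.012 with the length offset and with the length offset and replicate block, and it ranged from -0.021 to 0.093 when 1 library was left out. Spry2 ranged from -0.067, without control replicate 1, to 0.21. Neither passed in any fit. The 24 genes of the other lists that passed kept their direction in all 336 alternative values and lost the call in 63. Across the models, the number that fell moved by over 1.5 times for the ERK cascade, from 2 to 4 with DESeq2, no filter or the length offset and to 1 with library totals, limma-voom or the replicate block, for the ERK-responsive genes, from 4 to 7 with the length offset, and for the other dual-specificity phosphatases, from 3 to 1 with the replicate block. The receptors that fell numbered 4 to 7 across the models. With the length offset, 2 genes of the p38 and JNK cascades fell and 1 receptor rose. Over all genes, the numbers higher and lower were 661 and 842, against 328 and 411 without DB2313 replicate 2 and 1097 and 1311 without DB2313 replicate 3. Without control replicates 1, 2 and 3 they were 361 and 485, 360 and 436, and 383 and 471.

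Whether equal replicate numbers mark paired libraries is not known. Once each group was centred on its own mean, control and DB2313 libraries of equal number correlated at 0.0035, -0.024 and -0.12. For no replicate number was the library of equal number the best match. With only 3 libraries per group, these values cannot decide whether libraries of equal number were prepared together. With the replicate block, Dusp2, Dusp10 and Dusp16 still passed. With 15 to 35 counts per library, Spry1 could show only large changes.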
